A study of Mus musculus with 12 samples.

Results

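Basal cells of the mammary gland late in pregnancy (day 18.5) were compared with basal cells of virgin glands. The comparison rests on 4 of the study's 12 RNA sequencing libraries, taken by their labelled cell population and stage: 2 from virgin and 2 from pregnant mice. All mice were FVB/N females of wild type, none was treated, and their age is not given in the sources used here. Basal cells were sorted by flow cytometry and lysed for total RNA with an RNeasy Plus Mini kit. The labels name 2 mice per stage without tying a mouse to a library, so p-values measure the spread between libraries. That spread was estimated over all 12 libraries of the study. Luminal cells of the same stages were sequenced too (2 libraries each) and serve here as the source of carried-over RNA and as a comparison. Both cell types were also sequenced at day 2 of lactation. Basal levels of that stage are given beside some genes as a description.

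Basal cells form the outer layer of mammary ducts and alveoli, rest on the basement membrane and share the contractile machinery of smooth muscle. Oxytocin, released when young suckle, makes them contract and press milk out of the alveoli, so the layer is built up during pregnancy for a task that starts after birth. The population also holds cells that can rebuild a gland on transplantation, and it exchanges Wnt, Notch, EGF family and matrix signals with the luminal cells inside it, which make the milk.

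Defining markers were in place for the basal label. Krt5, a basal keratin, was at 2047 and 1661 CPM in virgin basal and 1768 and 2133 in pregnant basal libraries, against 3.76 and 3.78 and 3.94 and 3.99 in the luminal libraries (CPM are counts per 1000000 on library sizes scaled by trimmed means of M-values, TMM). Trp63, the transcription factor that defines the basal lineage, was at 281 and 222 and 238 and 288 CPM, against 0.538 and 0.912 and 1.03 and 1.87. Elf5, a factor of luminal alveolar cells, stood at 2.61 and 3.56 CPM in virgin basal libraries and 26 and 16.9 in pregnant ones, against 131 and 140.3 and 707 and 758 in luminal libraries. The 4 basal libraries held 21777891 to 24100765 counts, and replicates correlated at 0.9893 in virgin and 0.9906 in pregnant basal cells (Pearson, log2 CPM over genes, which are not independent replicates). The run names in the labels put luminal libraries in lane 1 and basal libraries in lane 2, so cell type and lane cannot be told apart where levels of both populations are set side by side. In bulk libraries, fewer cells of a type and less RNA per cell also cannot be told apart.

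Of 15969 genes tested, 4794 (30.0%) were called at an adjusted p under 0.05 in the quasi-likelihood test of edgeR, adjusted by the Benjamini-Hochberg method. The rises numbered 2491 (15.6%) and the falls 2303 (14.4%), with 891 rises and 942 falls of at least 2-fold and 283 rises and 267 falls of at least 4-fold. Without the second pregnant library 3009 genes were called, 1598 up and 1411 down. In all 4794 called genes both libraries of one stage lay above both of the other, a separation that 33.6% of the genes tested showed upwards and 31.8% downwards. The median log2 change over all genes tested was 0.004, and with scaling by library size alone it was -0.152 and 32.1% of calls were rises against 52.0% in the main fit. Changes below are log2 of pregnant over virgin with their standard error (SE). The gene lists below were chosen with earlier results of these data known, and their counts of called genes are read against the shares above.

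The contractile apparatus rose as a group. Of its 25 genes, 22 rose and 1 fell, with a median log2 change of 1.05 against 0.004 over all genes, and 19 to 22 rose when each of the 4 libraries was left out in turn. Acta2, the smooth muscle actin that makes up the thin filaments, was at 4318 and 4226 CPM in the virgin and 14460 and 17327 in the pregnant libraries, a log2 change of 1.90 (SE 0.24, adjusted p = 0.00011). Myh11, the smooth muscle myosin heavy chain, was at 2622 and 2361 CPM in the virgin and 8243 and 10509 in the pregnant libraries, a change of 1.91 (SE 0.24). Mylk, the kinase that switches the myosin on, was at 701 and 772 CPM in the virgin and 3076 and 3740 in the pregnant libraries, a change of 2.21 (SE 0.18). For all 3 the lower pregnant library stood well clear of the higher virgin one, so the groups did not overlap.

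Other genes of the same machinery changed by up to 2.81. Ppp1r14a, an inhibitor of myosin phosphatase that keeps the myosin active, was at 8.69 and 7.46 CPM in the virgin and 46 and 67.8 in the pregnant libraries, a change of 2.81 (SE 0.18, adjusted p = 1.1e-06). Actg2, the enteric smooth muscle actin, was at 115 and 97.8 CPM in the virgin and 570.3 and 756 in the pregnant libraries, a change of 2.64 (SE 0.17). Its coding sequence is nearly identical to that of Acta2 and Acta1, so reads may have been shared between the actins. The collagen receptor subunit Itga1 was at 41 and 46.1 CPM in the virgin and 139 and 199.8 in the pregnant libraries, a change of 1.96 (SE 0.17). The myosin light chain Myl9 rose by 1.92 (SE 0.20), calponin Cnn1 by 1.5, the tropomyosins Tpm2 and Tpm1 by 1.58 and 1.02, caldesmon Cald1 by 1.35, the Z-disc protein Synpo2 by 1.59 and filamin A, Flna, by 0.96 on the log2 scale. Tagln (transgelin) rose by 1.01 and vinculin, Vcl, by 0.78, but other genes overlap 67.9% and 25.5% of their exon length, and without a stated strand setting those values are uncertain.

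Factors that drive these genes moved less. Srf, serum response factor, was at 177 and 172 CPM in the virgin and 267 and 286 in the pregnant libraries, a change of 0.66 (SE 0.12, adjusted p = 0.0011). Its coactivator Mrtfa was at 62.5 and 55.3 CPM in the virgin and 75 and 90.9 in the pregnant libraries, a change of 0.49 (SE 0.11), which was not called without the second pregnant library (adjusted p = 0.0759) or without the second virgin library (adjusted p = 0.0515). Myocd, the coactivator of vascular smooth muscle, was at 1.63 and 1.89 CPM in the virgin and 0.48 and 0.742 in the pregnant libraries and was not called (change -1.53 (SE 0.54)). The one contractile gene that fell was Des, the muscle intermediate filament desmin, at 13.9 and 10.6 CPM in the virgin and 3.91 and 7.54 in the pregnant libraries (change -1.11 (SE 0.27)), and its call was lost without the first pregnant (adjusted p = 0.0725) or the first virgin library (adjusted p = 0.0741). Actn1 and Lmod1 rose by 0.48 and 0.82. Without the second pregnant library neither was called (adjusted p = 0.0563 and 0.148), Lmod1 was also lost without either virgin library (adjusted p = 0.0557 and 0.0993) or in DESeq2 (adjusted p = 0.106), and Actn1 in the 4 libraries alone (adjusted p = 0.0507).

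**Figure D1:**
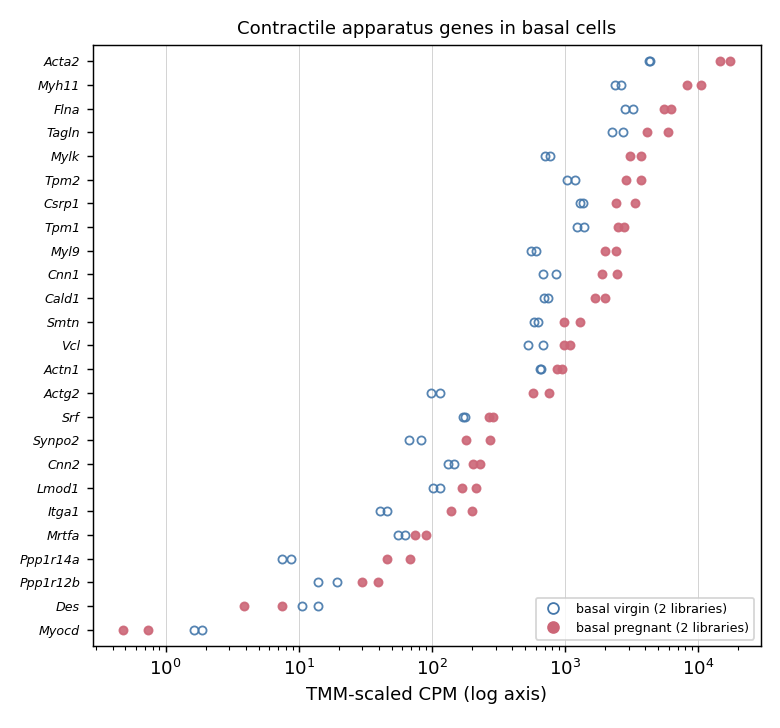
Levels of the 25 contractile apparatus genes in TMM-scaled CPM (log axis) in each basal library, open circles for the 2 virgin and filled circles for the 2 pregnant libraries. Filled circles lie to the right for 23 genes and to the left for Des and Myocd.

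Serum response factor binds a short AT-rich element, the CArG box, in the promoters of many muscle genes. Of the 25 contractile genes, 21 had a promoter in the RefSeq table (GRCm38.p6), and the 250 bases before the start of transcription were searched for the CArG box on both strands. Cnn2, Myl9, Srf and Vcl held a full box, and Acta2 and Mrtfa one with 1 mismatch in its middle, so that 6 of 21 (28.6%) held either form. Over 11947 tested genes with an entry, 1.44% held a full box and 9.6% either form. The 3 promoters printed here, read 5′ to 3′ on the strand of the gene, are those of an actin, of a myosin light chain and of the factor itself, with matches in capitals. They are Acta2 at chr19:34255374-34255623 on the minus strand, Myl9 at chr2:156775214-156775463 on the plus strand and Srf at chr17:46556163-46556412 on the minus strand. A match is a description of these letters and says nothing of binding in these cells.
Acta2: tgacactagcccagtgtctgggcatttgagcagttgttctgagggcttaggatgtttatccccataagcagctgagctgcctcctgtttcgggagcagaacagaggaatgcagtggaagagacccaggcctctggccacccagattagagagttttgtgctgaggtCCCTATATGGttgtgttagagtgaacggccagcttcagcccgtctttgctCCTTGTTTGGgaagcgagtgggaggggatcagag
Myl9: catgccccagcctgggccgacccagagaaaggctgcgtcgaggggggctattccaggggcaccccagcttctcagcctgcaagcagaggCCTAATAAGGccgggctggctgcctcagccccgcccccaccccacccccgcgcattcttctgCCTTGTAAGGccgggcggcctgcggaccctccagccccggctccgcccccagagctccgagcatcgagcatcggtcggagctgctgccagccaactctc
Srf: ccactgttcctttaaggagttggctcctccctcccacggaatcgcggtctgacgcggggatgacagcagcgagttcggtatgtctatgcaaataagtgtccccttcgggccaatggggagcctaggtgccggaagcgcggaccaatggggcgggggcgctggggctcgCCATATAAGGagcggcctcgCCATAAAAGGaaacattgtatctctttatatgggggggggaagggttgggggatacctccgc
The matches of Acta2 begin 84 and 34 bases before the start, those of Myl9 161 and 99 bases before it and those of Srf 82 and 62 bases before it. These 3 genes changed by 1.90, 1.92 and 0.66, and no trend with the number of matches is read from them.

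Genes of oxytocin and calcium signalling changed in both directions, and the oxytocin receptor itself was not called. Of 26 genes of oxytocin and Gq calcium signalling, 9 rose and 5 fell, with a median of 0.22, and 1 fell without the first pregnant or without the second virgin library. Oxtr, the oxytocin receptor, was at 375 and 265 CPM in the virgin and 339.6 and 523 in the pregnant libraries, a change of 0.43 (SE 0.23, adjusted p = 0.17) that was not called, and the virgin and pregnant libraries overlapped. At day 2 of lactation Oxtr stood at 1614 and 1730 CPM. Plcb1, a phospholipase C that makes the calcium-releasing messenger, was at 31.5 and 30.0 CPM in the virgin and 71.4 and 89.6 in the pregnant libraries, a change of 1.39 (SE 0.14), and Gnaq, the G protein alpha subunit that activates it, rose by 0.64. Both subunits of the large calcium-activated potassium channel, which damps contraction, rose. The pore subunit Kcnma1 was at 14.8 and 14.4 CPM in the virgin and 48.6 and 51.3 in the pregnant libraries, a change of 1.77 (SE 0.15), and the auxiliary subunit Kcnmb1 was at 26.5 and 29.4 CPM in the virgin and 80.1 and 100.3 in the pregnant libraries, a change of 1.69 (SE 0.13). The endothelin receptor Ednrb rose by 1.79, the cGMP kinase Prkg1 by 1.03 and Rgs2, which switches Gq off, by 0.75. On the release side, the inositol trisphosphate receptor Itpr3 was at 109 and 87.1 CPM in the virgin and 42.4 and 41.6 in the pregnant libraries, a change of -1.22 (SE 0.13), with RNA carried over from luminal cells expected to make up 10.2% of its virgin level (the estimate is described with the milk transcripts below).

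Some basement membrane genes rose, chains of type IV collagen among them. Of 23 genes 6 rose and 2 fell (median 0.34), where 15.6% of all genes tested rose and 14.4% fell. The rises numbered 10 without the second virgin library, and 1 gene fell without the second pregnant or without the first virgin library. Col4a1, which with Col4a2 forms the common network of type IV collagen, was at 1382 and 1894 CPM in the virgin and 4076 and 3706 in the pregnant libraries, a change of 1.25 (SE 0.15, adjusted p = 9.4e-05), and Col4a2 rose by 1.05. The rarer chain Col4a4 was at 1.22 and 1.36 CPM in the virgin and 8.63 and 12.9 in the pregnant libraries, a change of 3.05 (SE 0.32), and Col4a3 was at 1.11 and 3.48 CPM in the virgin and 11 and 13.2 in the pregnant libraries, a change of 2.40 that was 1.8 without the first and 3.43 without the second virgin library. Among laminins, Lama1, which is typical of the basal layer, was at 329 and 395 CPM in the virgin and 883 and 944 in the pregnant libraries, a change of 1.34 (SE 0.14), and the gamma chain Lamc1 rose by 0.63. Lama5 went the other way, at 512 and 452 CPM in the virgin and 150.0 and 163 in the pregnant libraries, a change of -1.62 (SE 0.17), with an expected carry-over of 11.6% of its virgin level. The remaining laminin, nidogen, perlecan and agrin genes were not called.

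Adhesion genes changed in both directions. Of 30 integrin, hemidesmosome and desmosome genes 12 rose and 7 fell (median 0.22), and 9 rose and 9 fell with scaling by library size alone. The falls numbered 4 without the first pregnant or without the first virgin library. Itga5, a chain of the fibronectin receptor, was at 114 and 179 CPM in the virgin and 370.3 and 544 in the pregnant libraries (change 1.64 (SE 0.25)), and Itgb1, its partner chain, was at 819.6 and 909 CPM in the virgin and 1419 and 1647 in the pregnant libraries (change 0.83 (SE 0.14, adjusted p = 0.00087)). Itgb4, the hemidesmosome chain that anchors basal cells to laminin, was at 225 and 183 CPM in the virgin and 46.3 and 67.6 in the pregnant libraries, a change of -1.84 (SE 0.17, adjusted p = 1.5e-05), the largest fall of an integrin in the list. Its partner chain Itga6 rose by 0.52 but was not called without the second pregnant library (adjusted p = 0.104), without the first virgin library (adjusted p = 0.126) or with scaling by library size alone (adjusted p = 0.0534). The cadherins Cdh13 and Cdh3 rose by 1.70 and 0.60, and Perp, a desmosome protein under p63 control, was at 296 and 313 CPM in the virgin and 674 and 797 in the pregnant libraries, a change of 1.27 (SE 0.12). The desmosomal cadherins Dsg3 and Dsc2 fell by 2.97 and 1.30. Carry-over expected for Dsc2 was 11% of the virgin level.

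Interstitial matrix genes moved in both directions, 7 up and 7 down of 28 (median -0.07), with 4 up without the second pregnant library. Dcn, the collagen-binding proteoglycan decorin, was at 54.2 and 89 CPM in the virgin and 434 and 580.1 in the pregnant libraries, a change of 2.82 (SE 0.31, adjusted p = 4.9e-05). Dcn is also a fibroblast marker, and of 12 fibroblast markers 2 rose (Dcn and Col3a1) and 2 fell (Fbln1 and Dpt). The summed level went from 237.4 and 321.3 CPM to 682.3 and 869.9. Dcn itself holds 434 and 580.1 CPM of the pregnant sums, so they are no separate measure of fibroblast RNA. Col1a1 and Col1a2 had changes of 0.28 and 0.45 and were not called. A part of fibroblast RNA in the rise of Dcn was not tested. The crosslinking enzyme Loxl2 was at 1.77 and 4.31 CPM in the virgin and 26.3 and 25.2 in the pregnant libraries, a change of 3.09 (SE 0.34), which was 3.85 without the second virgin library. Tnc, tenascin C, was at 86.9 and 59.6 CPM in the virgin and 8.16 and 9.64 in the pregnant libraries, a change of -3.04 (SE 0.21), and Fbln1, Fbln2, Fn1 and Col5a2 fell by 1.59, 1.42, 1.20 and 1.28. Of 23 matrix proteases and inhibitors 5 rose and 6 fell, and 3 rose without the second pregnant, the first virgin or the second virgin library. Plat, tissue plasminogen activator, was at 232 and 186 CPM in the virgin and 18.1 and 29.6 in the pregnant libraries, a change of -3.13 (SE 0.22, adjusted p = 1.7e-06). Htra1, a secreted serine protease, went from 47.6 and 64.3 to 268 and 229.7 CPM, a change of 2.15 (SE 0.16), and the aggrecanases Adamts1 and Adamts5 fell by 1.20 and 1.27.

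Among EGF family ligands Nrg1, Nrg2 and Ereg rose. Nrg1, a ligand of the ERBB3 and ERBB4 receptors of luminal cells, was at 27.6 and 34.4 CPM in the virgin and 223 and 247 in the pregnant libraries, a change of 2.92 (SE 0.16, adjusted p = 3.8e-07), and stood at 457 and 428 CPM at lactation. Nrg2 was at 14.4 and 13.4 CPM in the virgin and 47.8 and 48.9 in the pregnant libraries, a change of 1.79 (SE 0.16), and Ereg was at 9.67 and 25.5 CPM in the virgin and 69.4 and 55.3 in the pregnant libraries, a change of 1.83 that was 2.69 without the second virgin library. Hbegf went down, from 237 and 295 to 117 and 118 CPM (change -1.18 (SE 0.22)). Egfr, the receptor for Hbegf and Ereg, was at 113 and 128 CPM in the virgin and 131 and 137 in the pregnant libraries (change 0.15 (SE 0.14)) and was not called, while Errfi1, a feedback inhibitor of EGFR, rose by 1.12. In all, 4 of 18 genes rose and 5 fell, 3 without the second pregnant library. Areg and Erbb2 fell by 3.65 and 0.79 with an expected carry-over of 356% and 25.8% of their virgin level, and the part of luminal RNA in these falls was not tested. After subtraction of the expected carry-over the change of Areg was 6.56 (adjusted p = 0.016), and 4.5 (adjusted p = 0.02) with an estimate from 8 milk genes. Subtraction left little or nothing of Areg in virgin libraries, so these changes follow from it and are not read as rises. The fall of Areg was 4.37 without the first pregnant library.

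Wnt pathway genes changed in both directions, with more falls than rises. Of 33 genes 7 rose and 12 fell, with a median of -0.48 (-0.64 and 18 falls with scaling by library size alone). Lgr5, an R-spondin receptor and marker of Wnt-responsive stem cells, was at 129 and 77.5 CPM in the virgin and 5.09 and 8.12 in the pregnant libraries, a change of -3.97 (SE 0.30, adjusted p = 2.7e-06), with 1.39 and 2.21 CPM at lactation. The target and feedback inhibitor Axin2 was at 25.2 and 17.7 CPM in the virgin and 5.57 and 4.82 in the pregnant libraries, a change of -2.04 (SE 0.25), and Nkd2 was at 32.1 and 34.3 CPM in the virgin and 3.73 and 3.67 in the pregnant libraries, a change of -3.16 (SE 0.24). The receptors Fzd10, Fzd8 and Fzd6 fell by 1.95, 1.12 and 0.84, the transcription factor Tcf7 by 0.83 and the ligand Wnt5b by 1.20, with expected carry-over of 11.4% for Fzd6 and 21.7% for Wnt5b. Wnt6 was at 26.5 and 24.6 CPM in the virgin and 61.7 and 74.1 in the pregnant libraries, a change of 1.41 (SE 0.14), and Wnt4, a ligand best known from progesterone-responsive luminal cells, was at 5.46 and 5.15 CPM in the virgin and 22.4 and 20.2 in the pregnant libraries, a change of 2.01 (SE 0.22) with a carry-over of 7.25%. The secreted inhibitors Sostdc1, Sfrp2 and Wif1 rose by 1.45, 1.23 and 0.90. Rspo1, an R-spondin, was at 2.33 and 1.63 CPM in the virgin and 28 and 14.1 in the pregnant libraries, a change of 3.40 (SE 0.35), with an expected carry-over of 46.1% of its pregnant level.

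Notch pathway genes were lower, with 11 of 19 falling and 3 rising (median -0.57). The falls numbered 5, 7 and 6 without the first pregnant, the second pregnant and the second virgin library, and 1 gene rose without the second pregnant or without the first virgin library. Lfng, a glycosyltransferase that tunes Notch receptors, was at 44.2 and 26.8 CPM in the virgin and 11.9 and 11.7 in the pregnant libraries, a change of -1.59 (SE 0.20, adjusted p = 0.00011). The target Hey1 was at 14.7 and 12.1 CPM in the virgin and 5.94 and 3.83 in the pregnant libraries, a change of -1.45 (SE 0.28) with an expected carry-over of 14.9% of the virgin level. The target Nrarp fell by 1.27, with a carry-over of 9.91%, and 79.4% of its exon length overlaps other genes. Dll1, a ligand displayed by basal cells, was at 497 and 546 CPM in the virgin and 711 and 747 in the pregnant libraries, a change of 0.48 (SE 0.12), with 20.5% overlap. It was not called without the second pregnant library (adjusted p = 0.0571), without the first virgin library (adjusted p = 0.0636) or with scaling by library size alone (adjusted p = 0.055). Jag1, another ligand, was at 152 and 162 CPM in the virgin and 171 and 172 in the pregnant libraries and was not called. Maml2, a coactivator of Notch receptors, went up from 77 and 80.3 to 136 and 157 CPM (change 0.90 (SE 0.15)).

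Growth factor axes other than EGF were mixed. In the IGF axis 2 of 17 genes rose and 9 fell (median -0.53). Igfbp2, an IGF-binding protein, was at 214 and 141 CPM in the virgin and 1044 and 1176 in the pregnant libraries, a change of 2.64 (SE 0.17, adjusted p = 1.1e-06), and Igfbp4 rose by 1.32. The receptor Igf1r was at 152 and 164 CPM in the virgin and 63.5 and 82.7 in the pregnant libraries, a change of -1.11 (SE 0.21), the binding protein Igfbp7 fell by 1.42, and the protease Pappa2, which frees IGF from its binding proteins, was at 5.18 and 4.43 CPM in the virgin and 0.185 and 0.7 in the pregnant libraries, a change of -3.46 (SE 0.49) (-2.77 without the first and -4.66 without the second pregnant library). Igfbp5, a binding protein linked to involution of the gland, was at 3052 and 3701 CPM in the virgin and 3920 and 2281 in the pregnant libraries and was not called. Of 23 FGF and PDGF genes 4 rose and 2 fell, where 30.0% of all genes tested were called. In that list 1 gene fell when any of the 4 libraries was left out. The receptor Fgfr3 was at 84.5 and 57 CPM in the virgin and 11.7 and 11.4 in the pregnant libraries, a change of -2.61 (SE 0.18, adjusted p = 1.3e-06), and Spry2, a feedback inhibitor of receptor tyrosine kinases, was at 59.7 and 74.4 CPM in the virgin and 178 and 145 in the pregnant libraries, a change of 1.27 (SE 0.13).

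TGF-beta and BMP genes numbered 7 up and 10 down of 28 (median 0.01), with 4 up without the first pregnant, the second pregnant or the second virgin library and 6 down without the first pregnant. Ltbp2, a matrix protein of the latent TGF-beta binding family, was at 1726 and 833 CPM in the virgin and 141 and 210.4 in the pregnant libraries, a change of -2.86 (SE 0.29, adjusted p = 2.8e-05) (-2.24 without the first virgin library), and Ltbp3 fell by 1.02. Tgfb1 was at 38.1 and 37.3 CPM in the virgin and 16.1 and 14.9 in the pregnant libraries (change -1.28 (SE 0.15)) while Tgfb2 was at 18 and 21.9 CPM in the virgin and 46.6 and 51.6 in the pregnant libraries (change 1.30 (SE 0.13)), so those ligands went in opposite directions. The receptor Tgfbr2 rose by 0.83. Id1 and Id3, inhibitors of helix-loop-helix factors that BMP signals induce, both fell. Id3 was at 105 and 86.4 CPM in the virgin and 14.1 and 14.6 in the pregnant libraries, a change of -2.74 (SE 0.13, adjusted p = 1.3e-07), and Id1 was at 33.7 and 27.8 CPM in the virgin and 6.27 and 8.24 in the pregnant libraries, a change of -2.09 (SE 0.22).

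Axon guidance cues, which mammary cells use for adhesion and layering, showed large changes in single genes, with 5 of 29 up and 8 down (median -0.12). The rises numbered 3 without the second pregnant or without the first virgin library and 8 without the second virgin. Sema3b was at 60.1 and 46.4 CPM in the virgin and 3.06 and 2.93 in the pregnant libraries, a change of -4.15 (SE 0.26, adjusted p = 1.1e-06), and Sema3d and Sema3c rose by 2.00 and 1.62. Ntn4, a laminin-binding netrin, was at 70.6 and 63.1 CPM in the virgin and 5.68 and 14.3 in the pregnant libraries, a change of -2.75 (SE 0.32) (-3.55 without the second pregnant library). Slit2, a ligand of Robo receptors, was at 26.1 and 45 CPM in the virgin and 7.05 and 8.98 in the pregnant libraries, a change of -2.15 (SE 0.26).

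Genes that define basal identity changed in both directions. Of 14 such genes 3 rose and 4 fell (median 0.06), 1 of them without the first pregnant library. Krt14 was at 3658 and 4418 CPM in the virgin and 4202 and 5449 in the pregnant libraries and not called, like Krt5 and Trp63 (changes 0.26, 0.07 and 0.06). Snai2, a factor linked to basal fate, was at 40.5 and 49.7 CPM in the virgin and 128 and 109.6 in the pregnant libraries, a change of 1.4 (SE 0.15, adjusted p = 3.3e-05). Lgals7, an epithelial galectin, was at 198 and 171 CPM in the virgin and 22 and 46.1 in the pregnant libraries, a change of -2.44 (SE 0.28) (-3.06 without the second pregnant library). Procr, a marker of a mammary stem cell fraction, was at 42.9 and 73.2 CPM in the virgin and 25.8 and 39.3 in the pregnant libraries, a change of -0.84 (SE 0.29) that lost its call without the first pregnant library (adjusted p = 0.268) or without the second virgin library (adjusted p = 0.377), under RLE scaling (adjusted p = 0.053) and with the carry-over of 8 milk genes subtracted (adjusted p = 0.0526). Krt17 was at 2162 and 2414 CPM in the virgin and 963 and 1471 in the pregnant libraries (change -0.91 (SE 0.21)), and was not called without the first pregnant library (adjusted p = 0.0523). Among 15 keratins 3 rose and 4 fell. Without the second pregnant library 0 rose, without either virgin library 1 rose, and without the first pregnant 2 fell. Krt79, which stood lowest among them in virgin libraries, had 106 counts in the virgin and 2 in the pregnant libraries, a ratio of 49.3 in CPM (95% counting interval 13.3 to 413). Its fitted change ran from -8.45 to -4.60 when single libraries were left out.

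Transcription factors of the basal layer numbered 8 up and 8 down of 27 (median 0.06), with 5, 4 and 4 up without the first pregnant, the second pregnant and the first virgin library. Mef2c, a partner of muscle gene programmes, was at 29.4 and 35.7 CPM in the virgin and 65 and 75.6 in the pregnant libraries, a change of 1.11 (SE 0.14, adjusted p = 9.4e-05), and Tcf7l1 rose by 0.72. Bcl11a and Bcl11b, zinc finger repressors, fell by 2.16 and 1.51, and Zeb2 and Egr2 by 1.49 and 1.52. Among YAP pathway genes, which respond to stretch and matrix stiffness, 7 of 14 rose and 1 fell (median 0.65). Ccn2, a secreted target of YAP, was at 406 and 517 CPM in the virgin and 3021 and 3358 in the pregnant libraries, a change of 2.79 (SE 0.24, adjusted p = 8.5e-06), and stood at 638 and 949.6 CPM at lactation, with 23.2% of its exon length shared with other genes. Yap1 itself was at 309.6 and 339 CPM in the virgin and 519 and 518 in the pregnant libraries, a change of 0.68 (SE 0.11), and its binding partner Amotl1 rose by 0.83. The target that fell was Ankrd1, at 19.9 and 11.3 CPM in the virgin and 1.81 and 5.15 in the pregnant libraries, a change of -2.18 (-3.10 without the second pregnant library).

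Hormone receptors and their readouts moved modestly. Of 21 steroid and nuclear receptor genes 7 rose and 2 fell (median 0.12, -0.03 with scaling by library size alone), and 0 fell without the first virgin library and 1 without any other. Tsc22d3 and Fkbp5, targets of the glucocorticoid receptor, were at 30.1 and 35.6 and 13.1 and 13.8 CPM in virgin and 55.9 and 58.9 and 25.6 and 24.5 in pregnant libraries (changes 0.80 (SE 0.12) and 0.90 (SE 0.17)), with expected carry-over of 9.99% and 11.8%. The thyroid hormone receptor Thrb rose by 1.06. Esr1, the oestrogen receptor, was at 3.69 and 4.77 CPM in the virgin and 2.92 and 5.73 in the pregnant libraries and was not called. Pgr, the progesterone receptor, was at 13.9 and 13.4 CPM in the virgin and 19.7 and 21.1 in the pregnant libraries (change 0.58 (SE 0.17, adjusted p = 0.021)), but the call was lost when any 1 of the 4 libraries was left out (adjusted p = 0.0516 to 0.102) and with scaling by library size alone (adjusted p = 0.0779). Stat5a and Stat5b, which carry the prolactin signal, fell by 0.77 and 1.05, from 79.95 and 80.8 to 50.4 and 43.8 CPM and from 36.5 and 33.3 to 18.9 and 14.8 CPM, with a carry-over of 12.1% for Stat5b. Of the 11 genes of that list 1 rose and 4 fell.

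Among genes with an expected carry-over under 10% and at least 5 CPM in the higher stage, the largest rises were of very different kinds. Cnmd, chondromodulin, an inhibitor of vessel growth known from cartilage, was at 0.417 and 0.454 CPM in the virgin and 13.2 and 26 in the pregnant libraries, a change of 5.47 (SE 0.52, adjusted p = 1.7e-05). Lep, the hormone leptin, was at 1.08 and 2.16 CPM in the virgin and 14.5 and 62.6 in the pregnant libraries, a change of 4.58 (SE 0.62) that was 5.28 without the first and 3.17 without the second pregnant library. Plin4, a lipid droplet protein, was at 5.43 and 12.6 CPM in the virgin and 136 and 162 in the pregnant libraries, a change of 4.05 (4.77 without the second virgin library). Both are adipocyte markers, and of the 13 markers in that list the defining genes Adipoq, Plin1, Cidec, Retn and Car3 were too low to test. Of 8 markers tested 2 rose, Lep and Plin4, and 0 fell. The summed level of the list was 229.0 and 352.2 CPM in virgin and 315.2 and 458.2 in pregnant libraries. That sum includes Lep and Plin4, so it is no separate measure of adipocyte RNA. Acta1, the skeletal muscle actin, was at 0.591 and 0.454 CPM in the virgin and 4.94 and 12.6 in the pregnant libraries, a change of 4.04 (3.22 without the second pregnant library) and may share reads with Acta2. Pcp4, a calmodulin regulator, was at 0.209 and 0.757 CPM in the virgin and 7.38 and 10.8 in the pregnant libraries, a change of 4.24 (3.57 and 5.40 without the first and second virgin library), and 23.7% of its exon length overlaps other genes.

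Further rises of this size included adhesion genes. Ncam1, the neural cell adhesion molecule, was at 3.62 and 4.24 CPM in the virgin and 43.9 and 47 in the pregnant libraries, a change of 3.53 (SE 0.17, adjusted p = 1.5e-07), and Bves, a muscle adhesion protein, was at 1.11 and 1.29 CPM in the virgin and 14.7 and 13.9 in the pregnant libraries, a change of 3.57 (SE 0.25). Spock3, a matrix proteoglycan, was at 2.19 and 4.88 CPM in the virgin and 60.3 and 33.9 in the pregnant libraries, and Lrp1b, a lipoprotein receptor, was at 0.696 and 1.44 CPM in the virgin and 13.3 and 14.9 in the pregnant libraries. Their changes of 3.75 and 3.73 were 4.42 and 4.33 without the second virgin library. Hpcal4, a neuronal calcium sensor, was at 5.36 and 9.27 CPM in the virgin and 83.3 and 92.8 in the pregnant libraries, a change of 3.59 (SE 0.23). Spaar, a small regulator of amino acid sensing, rose by 3.91, and the uncharacterised genes A630077J23Rik and Gm20560 by 4.19 and 3.63.

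The largest falls, by the same conditions, were of different kinds as well. Skint7, a keratinocyte immunoglobulin-like gene, had 354 counts in the virgin and 1 in the pregnant libraries, a ratio of 330.0 in CPM (95% counting interval 58.8 to 13100). The fitted change of Skint7 was -7.99 and ran from -10.18 to -7.08 without single libraries. Its relative Skint8 was at 10.5 and 9.57 CPM in the virgin and 0.185 and 0.948 in the pregnant libraries, a change of -4.18 (-3.40 and -5.73 without the first and second pregnant library), and the sequence likeness within the Skint family makes the share of reads between them uncertain. Serpinb11, a member of the serpin family, was at 39 and 45.9 CPM in the virgin and 0.369 and 0.165 in the pregnant libraries, a change of -7.26 (SE 0.32, adjusted p = 8.1e-08) (-7.96 without the first pregnant library), and Serpinb10 fell by 3.64. S100a14, an epithelial calcium-binding protein, was at 25.4 and 27.4 CPM in the virgin and 2.36 and 2.76 in the pregnant libraries, a change of -3.36 (SE 0.31). Them5 and Frmpd4 fell by 3.95 and 4.12, the latter by 3.42 without the first and 5.35 without the second pregnant library.

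Further large falls included receptors and signalling proteins. Adcy7, an adenylyl cyclase, was at 35.6 and 50.5 CPM in the virgin and 4.76 and 3.91 in the pregnant libraries, a change of -3.31 (SE 0.22), and Adgrg2, an adhesion receptor, was at 37 and 24 CPM in the virgin and 2.73 and 3.54 in the pregnant libraries, a change of -3.28 (SE 0.26). Gfra2, a coreceptor of the GDNF family, was at 162 and 86.8 CPM in the virgin and 12 and 13.9 in the pregnant libraries, a change of -3.27 (SE 0.29), and Map1b, a microtubule protein, fell by 3.26. The largest rises by difference in CPM were those of Acta2, Myh11, Mylk, Flna, Ccn2 and Thbs1, thrombospondin, which was at 2426 and 4172 CPM in the virgin and 6435 and 8414 in the pregnant libraries (change 1.17 (SE 0.28)). Its call was lost without the second pregnant (adjusted p = 0.061) or the first virgin library (adjusted p = 0.0702).

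Oxidative phosphorylation genes rose by small amounts. Of 25 oxidative phosphorylation genes 24 rose and 0 fell (median 0.55), each by 0.33 to 0.82, and 18 rose with scaling by library size alone (median 0.39). Ndufa1, of complex I, was at 29.9 and 28.3 CPM in the virgin and 50.9 and 52.2 in the pregnant libraries, a change of 0.82 (SE 0.10, adjusted p = 8.9e-05), and Cox6a1, of complex IV, was at 86.3 and 80.6 CPM in the virgin and 139.7 and 142 in the pregnant libraries, a change of 0.75 (SE 0.09). Of 20 glycolysis and hypoxia genes 11 rose and 2 fell (median 0.43). The hexokinases Hk1 and Hk2 rose by 0.78 and 0.80 and the oxygen sensor Egln3 by 1.66, while the glucose transporter Slc2a1 was at 343 and 378 CPM in the virgin and 202 and 205 in the pregnant libraries, a change of -0.83 (SE 0.10). In cholesterol synthesis 6 of 25 rose and 1 fell (median 0.02), where 30.0% of all genes tested were called. The rises numbered 3 without the second pregnant or the second virgin library, and the falls 3 and 2 without the first pregnant and the second virgin and 0 without the others. The desaturase Sc5d was at 21.8 and 23.7 CPM in the virgin and 62.4 and 53.3 in the pregnant libraries, a change of 1.35 (SE 0.17). Of 24 genes of amino acid transport and the ATF4 response 7 rose and 6 fell, 3 without the second pregnant library. Psat1, of serine synthesis, was at 30.8 and 31.4 CPM in the virgin and 159 and 125 in the pregnant libraries, a change of 2.19 (SE 0.16), and the arginine transporter Slc7a1 rose by 1.22. Of 22 milk fat genes 8 rose and 1 fell (median 0.24). The falls numbered 0 without the second pregnant or the first virgin library and 3 without the second virgin, 8 rose and 4 fell with scaling by library size alone, and 5 rose and 4 fell with the carry-over of 8 milk genes subtracted. The riser least covered by luminal RNA was Xdh, a milk fat globule protein, at 26 and 40.4 CPM in the virgin and 99 and 124 in the pregnant libraries, a change of 1.75 (SE 0.26) with an expected carry-over of 26.8%, and Acly, the enzyme that supplies carbon for fat, fell by 0.59 but was not called without the second pregnant (adjusted p = 0.0536) or the first virgin library (adjusted p = 0.0734).

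**Figure D2:**
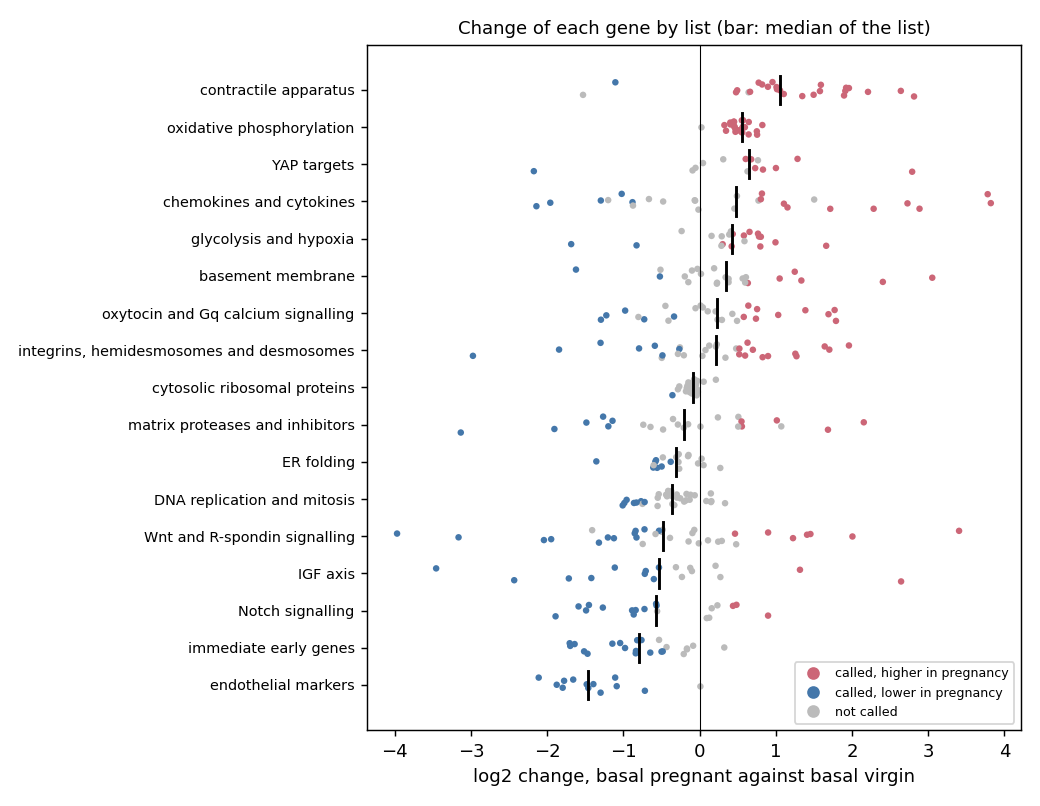
Log2 change, pregnant against virgin basal cells, of each gene in 17 of the gene lists, coloured by call, with a bar at each list's median. Contractile genes have the highest median (1.05) and endothelial markers the lowest (-1.46) of those drawn.

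In the lists of protein folding and of replication falls outnumbered rises, where 14.4% of all genes tested fell. Of 19 genes of folding in the endoplasmic reticulum 7 fell and 0 rose (median -0.31), with 2 and 4 falls without the second pregnant and the first virgin library and 12 with scaling by library size alone. P4hb, a disulphide isomerase, was at 426 and 404 CPM in the virgin and 295 and 269.6 in the pregnant libraries, a change of -0.56 (SE 0.10, adjusted p = 0.0018), and Sdf2l1 fell by 1.36. Hspa5, the main chaperone there, was at 2244 and 2055 CPM in the virgin and 1557 and 1335 in the pregnant libraries (change -0.57 (SE 0.13)) and was not called without the second pregnant library (adjusted p = 0.0743). Of 32 replication and mitosis genes 7 fell and 0 rose (median -0.36), with 2 falls without the second pregnant or the first virgin library and 4 without the second virgin. Pcna, the replication clamp, was at 248 and 213 CPM in the virgin and 152 and 127 in the pregnant libraries, a change of -0.72 (SE 0.15), and cyclin E1, Ccne1, fell by 0.99. Mki67, a marker of cycling cells, was at 47.8 and 48.9 CPM in the virgin and 46.8 and 38.9 in the pregnant libraries and was not called.

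Immediate early genes, which answer acute signals and also cell dissociation, were lower in pregnant libraries, with 15 of 22 falling and 0 rising (median -0.79). Fos was at 5821 and 3660 CPM in the virgin and 2243 and 2360 in the pregnant libraries, a change of -1.04 (SE 0.28), and Egr1 was at 4537 and 2790 CPM in the virgin and 1681 and 1633 in the pregnant libraries, a change of -1.14 (SE 0.33), with the first virgin library the highest for both. Neither was called without that library (adjusted p = 0.145 and 0.17), without the first pregnant (adjusted p = 0.0743 and 0.077) or without the second pregnant library (adjusted p = 0.0662 and 0.0976), and 7 of the list fell without the first pregnant or without the first virgin library. Fosl2 was at 779.7 and 697 CPM in the virgin and 280.2 and 253 in the pregnant libraries, a change of -1.47 (SE 0.12, adjusted p = 6.2e-06), and Atf3 was at 2244 and 1474 CPM in the virgin and 559 and 634 in the pregnant libraries, a change of -1.64 (SE 0.20). The heat shock genes Hspa1a and Hspa1b, near-identical copies whose reads cannot be assigned with certainty, fell by 1.71 and 1.70.

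Chemokine and cytokine genes rose more often than they fell, 10 against 5 of 26 (median 0.47), with 2 falls without the first pregnant library. The monocyte attractants Ccl2 and Ccl7 were at 41.7 and 41.9 and 8.21 and 11.2 CPM in virgin and 207 and 199.9 and 58.3 and 70.5 in pregnant libraries (changes 2.28 (SE 0.26) and 2.73 (SE 0.24)). Csf1, the macrophage growth factor, was at 258 and 400.2 CPM in the virgin and 727 and 736 in the pregnant libraries, a change of 1.15 (SE 0.22, adjusted p = 0.0017), and Lif was at 41.3 and 47.8 CPM in the virgin and 151 and 141 in the pregnant libraries, a change of 1.71 (SE 0.23), with an expected carry-over of 9.76%. The scavenger receptors Ackr4 and Ackr3, which remove chemokines, rose by 2.89 and 1.11. Il1b was at 0.0696 and 0.114 CPM in the virgin and 1.55 and 1.07 in the pregnant libraries, a change of 3.78 (SE 0.54), and Il1a had 2 counts in virgin and 30 in pregnant libraries, a ratio of 16.1 in CPM (95% counting interval 4.09 to 139), and was not called without the second pregnant (adjusted p = 0.0623) or the first virgin library (adjusted p = 0.114). Cxcl12 and Cxcl9 fell by 1.02 and 1.96. Leukocyte markers summed to 13.2 and 15.1 CPM in virgin and 16.7 and 19.9 in pregnant libraries, with 1 of 9 tested rising and 1 falling. Without the second pregnant or the first virgin library 0 rose, without the second virgin 2, and 0 fell without any 1 library. Ptprc, which defines leukocytes, was at 0.417 and 0.568 CPM in the virgin and 0.886 and 0.824 in the pregnant libraries and was not called.

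The remaining lists are read in the same way against the 30.0% of all genes that were called. Of 20 interferon response genes 3 rose and 3 fell, with 1 rise without the first pregnant and 0 falls without the second pregnant library. Of 14 antigen presentation genes 4 rose and 0 fell, and 1, 2 and 1 rose without the first pregnant, the first virgin and the second virgin library, with the class II chain H2-Ab1 at 3.51 and 2.99 CPM in the virgin and 10.8 and 9.23 in the pregnant libraries (change 1.62 (SE 0.36)). Of 17 circadian clock genes 6 rose and 1 fell, with 3 falls without the first pregnant and 0 without the second pregnant or the second virgin library. Nr1d1, a repressor in the clock loop, was at 52.3 and 55.3 CPM in the virgin and 208 and 145 in the pregnant libraries, a change of 1.71 (SE 0.17, adjusted p = 2.4e-05), and Hlf and Clock rose by 2.18 and 0.71. In the BCL2 family, which sets survival against apoptosis, 4 of 15 rose and 5 fell. The rises numbered 2 without the second pregnant library, and the falls 2, 3 and 2 without the second pregnant, the first virgin and the second virgin. Bcl2l1, a survival factor, was at 32.2 and 26.2 CPM in the virgin and 54.2 and 46 in the pregnant libraries, a change of 0.78 (SE 0.16) with an expected carry-over of 14.7%, while Bcl2 fell by 0.75 and the death factor Bcl2l11 by 0.68. Mcl1 was at 648 and 624 CPM in the virgin and 587 and 546 in the pregnant libraries and was not called.

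Milk transcripts were among the largest rises in the basal libraries, and their levels followed those of the luminal libraries. Of 13 milk protein genes 11 rose and 0 fell (median 3.08), and the same genes had a median change of 2.87 in luminal cells. Csn2, beta-casein, was at 7.93 and 16.8 CPM in the virgin and 1479 and 967 in the pregnant libraries, a change of 6.63 (SE 0.42, adjusted p = 1.1e-06) (7.27 without the second virgin library), against 542 and 864 CPM in virgin and 44804 and 53657 in pregnant luminal libraries. Wap, whey acidic protein, was at 1.04 and 1.48 CPM in the virgin and 154 and 209 in the pregnant libraries, a change of 7.17 (SE 0.42), against 72.2 and 75.5 and 4456 and 9853 in luminal libraries. Glycam1 and Csn1s2a had changes of 7.16 and 7.63, the latter with a near copy, Csn1s2b. Milk protein genes took 0.06967% and 0.09245% of the counts in virgin and 0.726% and 0.5063% in pregnant basal libraries, against 1.311% and 1.334%, and 17.43% and 20.39%, in luminal libraries.

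Set against the luminal level of the same stage, most milk genes stood at a common low share in pregnant basal libraries. Csn1s1, Csn2, Csn1s2a, Wap, Lalba and Glycam1 were at 2.482%, 2.484%, 2.538%, 2.536%, 2.476% and 2.545% of their luminal level. Spp1 and Csn3 were at 2.184% and 2.838%, and 12 of the 13 lay under 5%. The exception was Mfge8, the milk fat globule protein that basal cells of both stages held at 18.64% and 23.34% of the luminal level. In virgin libraries the shares were wider, from 1.583% for Csn1s2a to 6.542% for Muc15 with Mfge8 aside.

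Carry-over was expressed as the part of a basal library's counts from milk protein genes, in percent of the mean luminal part of its stage. It was 5.267% and 6.99% in virgin and 3.839% and 2.677% in pregnant libraries. With the 8 caseins, whey and secretory genes alone, a choice made after the data were seen, it was 1.442% and 2.155%, and 3.505% and 2.317%. A gene's expected carry-over is the first share times its mean part of the luminal counts, given as a percentage of its basal level. Both steps used total counts without TMM scaling, unlike the CPM levels and the percentages of luminal level given above. The first share includes Mfge8, which was at 18.64% of a luminal level of 2622 CPM in virgin glands. Its virgin mean was 6.13%, against 1.8% with the 8 genes, so percentages given for falls run high by that measure. Where the expected carry-over exceeds the measured level, as for Prlr, Areg, Foxa1 and Krt18 in virgin libraries, the estimate was too high. The expected carry-over reached 10% for 186 of the 2491 rises and 541 of the 2303 falls, and for 2615 of the 15969 genes tested. After its subtraction, with counts below 0 set to 0, 4709 genes were called, and 72 of the earlier calls had the other sign. A large change of a gene cut to or near 0 in either stage follows from the subtraction and is not read as a result. No count of Csn1s1, Csn2, Csn1s2a, Spp1 or Glycam1 was left in virgin or pregnant libraries to be compared in that setting, in which Lalba was not called (adjusted p = 0.0786). With 8 genes, the change of Glycam1 was 3.40 and not called (adjusted p = 0.0673), that of Lalba was 2.33 (adjusted p = 0.19), and 6 of 13 milk protein genes rose and 1, Spp1, fell (3.08 before and -7.57 after subtraction). Csn1s1, Csn2 and Csn1s2a had fitted changes of 10.81, 9.33 and 11.35 in that setting and were called. These changes come under the limit given above for genes cut to or near 0.

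**Figure D3:**
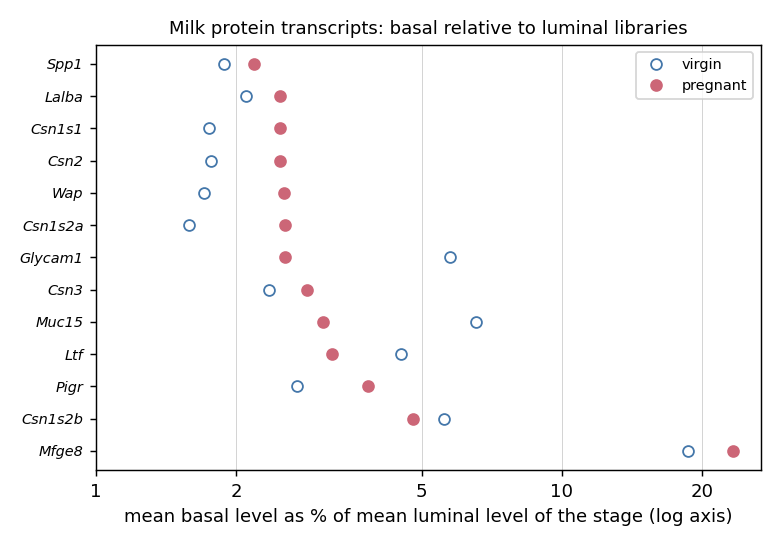
Mean basal level of 13 milk protein genes in percent of the mean luminal level of the same stage (log axis), open circles for virgin and filled circles for pregnant glands. In pregnancy 12 genes lie under 5% and Mfge8 at 23.34%.

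Other luminal genes in the basal libraries followed in part. Elf5 rose by 2.80, with an expected carry-over of 97.2% of its pregnant level, and Wfdc18 by 3.25, with 97.7%. Markers of hormone-sensing luminal cells fell, 6 of 12 against 2 rises, 1 when any library was left out (median -1.72), and the median was 0.21 after subtraction of the carry-over of 8 milk genes. Prlr, the prolactin receptor, was at 12.9 and 9.08 CPM in the virgin and 2.88 and 1.9 in the pregnant libraries, a change of -2.19 (SE 0.23, adjusted p = 2.9e-05), and was at 1.023% and 2.284% of its luminal level. Foxa1 fell by 2.30 and Prom1 by 3.02. The expected carry-over was 669%, 241% and 82.7% of the virgin level. For Prlr and Foxa1 it exceeded the level measured, so the estimate was too high there. No count of Prlr was left after either subtraction. Subtraction of more than the virgin level gave Foxa1 a change of 6.05, which is not read as a rise. With 8 genes its change was -1.41 (adjusted p = 0.131). Subtraction left Prom1 uncalled (adjusted p = 0.288) and, with 8 genes, Wfdc18 uncalled (adjusted p = 0.202). Of 12 luminal identity genes 3 rose and 4 fell, and 1 rose when any library was left out, with 2, 2 and 1 falls without the first pregnant, the second pregnant and the first virgin. Of 10 alveolar progenitor genes 5 rose and 2 fell, 1 when any library was left out. Krt18, a luminal keratin, was at 124 and 121 CPM in the virgin and 82.5 and 83.8 in the pregnant libraries (change -0.56 (SE 0.16)), with an expected carry-over of 127% and no call without the first virgin, first pregnant or second pregnant library (adjusted p = 0.0747, 0.0816 and 0.0812). Subtraction of more than the virgin level gave Krt18 a change of 12.61 (adjusted p = 1.4e-06), which is not read as a rise. With 8 genes its change was -0.98 (adjusted p = 0.0074). Lcn2, lipocalin 2, was at 670.4 and 1000 CPM in the virgin and 2302 and 2534 in the pregnant libraries, a change of 1.53 (SE 0.19), and stood at 42.9% of its luminal level in virgin and 110% in pregnant glands, far above the milk genes.

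Markers of other cells of the gland moved as follows. Endothelial markers fell, 12 of 13 (median -1.46), and in luminal libraries their median change was -1.87. Pecam1, an endothelial adhesion molecule, was at 77.8 and 128 CPM in the virgin and 22.8 and 33.2 in the pregnant libraries, a change of -1.88 (SE 0.25, adjusted p = 0.0002), and the summed level went from 374.8 and 624.6 to 157.3 and 207.4 CPM. Of 9 pericyte markers 1 rose (Cspg4, by 1.27) and 3 fell (2 rises without the first pregnant or the second virgin library, 1 fall without the first pregnant), Mcam among them (by 0.74), with sums of 303.6 and 297.5 against 180.4 and 232.5 CPM. Rgs5 and Pdgfrb, which define pericytes, had changes of 0.11 and -0.43 and were not called. Schwann cell markers fell in 5 of 8, Ngfr by 1.61 among them, and rose in 1, Ncam1. Their sums, Ncam1 included, were 194.7 and 165.6 against 188.9 and 207.1 CPM. Skeletal muscle markers, Acta1 included, summed to 5.7 and 5.0 against 8.3 and 19.3 CPM, with 2 of 9 rising (1 without the second pregnant or the second virgin library) and 1 falling (0 without any 1 library). Erythroid markers summed to 8.2 and 7.0 against 2.4 and 2.8, with 2 of 4 falling (1 without the first pregnant, the second pregnant or the second virgin library). Their part in the changes of genes shared with these cells was not tested.

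The basal changes were then set beside those of luminal cells of the same stages. In luminal cells 7335 genes (45.9%) were called, and 2685 were called in both cell types, 1959 in the same and 726 in opposite directions. The difference between the pregnancy changes was itself called for 4908 genes (30.7%), with the basal change above the luminal one for 2666 (16.7%) and below it for 2242 (14%). Of the 25 contractile genes 16 differed, and in all 16 the basal change was the higher, with a luminal median of -0.08. Other lists shifted in luminal cells too. Immediate early genes had a luminal median of -0.79, with 15 falls and 2 rises, and 5 of 22 differed. Oxidative phosphorylation genes had a luminal median of 0.44, with 19 rises and 0 falls, and 2 of 25 differed. Notch genes had -0.65, with 11 falls and 2 rises, and 7 of 19 differed. IGF genes had -0.64, with 9 falls and 3 rises, and 8 of 17 differed. Col4a1 had changes of 1.25 in basal and -0.84 in luminal cells (adjusted p of the difference = 2.1e-05), and Dcn of 2.82 and -5.17 (adjusted p = 3.7e-07). Nrg1 changed by 2.92 and 0.24 (adjusted p = 0.00064), and Pgr by 0.58 and -3.84 (adjusted p = 2.4e-07), with a basal call that was lost without any 1 of the 4 libraries (adjusted p = 0.0516 to 0.102). Basal Pgr stood at 14.7% of the luminal level in virgin and 316% in pregnant glands. Stat5a fell by 0.77 in basal cells and had a luminal change of 0.71 (adjusted p = 0.00013). P4hb fell by 0.56 against a luminal change of 0.61 (adjusted p = 9.3e-05). Igf2 fell by 2.43 in basal cells, where it was at 14.9 and 21.2 CPM in the virgin and 3.21 and 3.46 in the pregnant libraries, and rose by 3.94 in luminal cells, with 64.5% of its exon length shared with other genes. For milk protein genes the difference was called in 2 of 13.

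**Figure D4:**
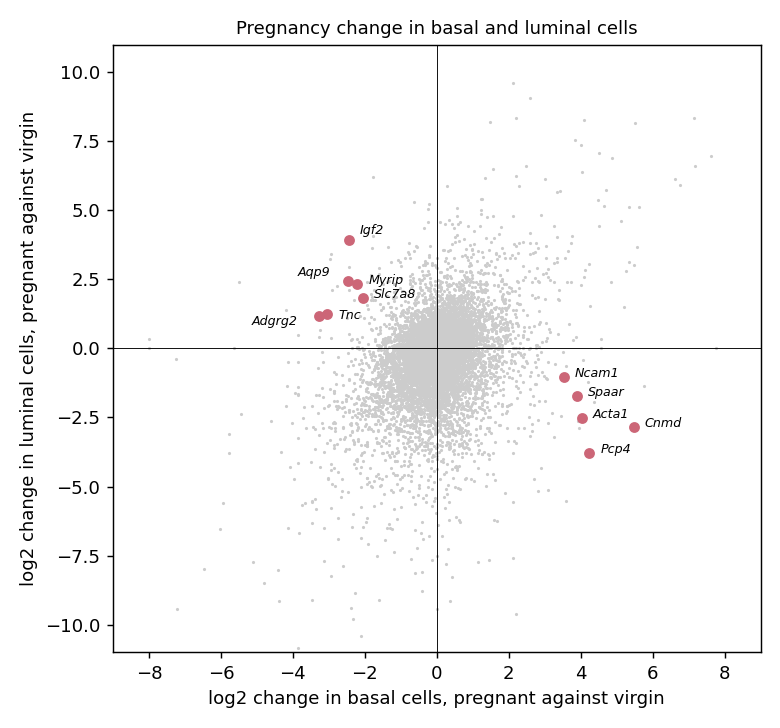
Log2 change from virgin to pregnant in luminal cells (vertical) against that in basal cells (horizontal) for 14440 genes with a mean of at least 1 CPM in a group, with 11 genes called in opposite directions marked. Cnmd, at 5.47 in basal and -2.85 in luminal cells, and Igf2, at -2.43 and 3.94, lie far from the diagonal.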

How the data were processed

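The authors deposited 1 raw read count per Entrez gene and library for 27179 genes, not normalized, per the file headers and values, beside a gene length (another number, deposited with the counts) used only to describe genes. Per the submitters' processing notes, which give no roles, the tools were CASAVA 1.8.2, featureCounts and Subread 1.4.4, with mm10 and GRCm38 as builds. The strand setting is not given in the sources used here, so overlapping genes (exon overlap from GENCODE models) and near-identical copies are called uncertain. The 12 files of single libraries held 0 counts that differed from the table, and 25275 genes matched a symbol in the RefSeq table (GRCm38.p6), which also gave coordinates and promoters. The 1904 genes with no symbol stayed in the tests and hold 0.905 to 1.038% of the basal virgin and pregnant counts.

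Genes with a minimum count of 10 by filterByExpr were kept, scaled by TMM and tested by edgeR 4.0.16 in R 4.3.3 (glmQLFit, glmQLFTest) with 6 group means over all 12 libraries, which share 1 spread, since each group has 2. The contrasts were basal pregnant minus virgin, the same in luminal cells, and their difference. None of them, the difference included, paired luminal with basal libraries. P-values were adjusted over 15969 genes by the Benjamini-Hochberg method. SEs follow from the log2 change and F. Counts were simulated from these libraries for 15818 genes, of which 200, drawn from genes above a level cut, were changed. There 96% of 4-fold and 74% of 2-fold changes were recovered. Of the calls 8.6% were false, at an adjusted p limit of 0.05. The data gave 4794 calls, genes with few counts among them, so these shares do not carry over to them. Counting intervals are 95% exact and cover counting error only, since PCR copies cannot be told from independent molecules without molecular identifiers.

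Members and the 45 lists (879 entries, 877 matched) were chosen with earlier results of these data known. Named genes were the 14 largest rises and falls with under 10% carry-over and at least 5 CPM, 6 rises with more carry-over, the 6 rises and falls largest in CPM, up to 4 called genes of each list by p, genes of a fixed list, and 6 genes in each direction with opposite luminal changes. Other list members named were chosen after their values were seen, and some genes that the rule names are not reported here. The compared stages come from different mice, so replicate numbers do not pair them. Luminal and basal libraries of 1 number deviated from their group means with correlations of 0.242 (virgin), 0.342 (pregnant) and 0.152 (lactating) over 10201 genes. In other pairs the correlations ran from -0.253 to 0.14. Numbers are arbitrary across stages, so only the size of those counts. The largest, -0.253, exceeds the virgin and lactating values in size, so the data do not settle the pairing of those stages. Pairing was used only in an alternative, the replicate block. DESeq2 1.42.0, other scalings and filters, carry-over subtraction (with 13 milk genes, and with 8 chosen after the data were seen) and left-out libraries were alternatives.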

Additional observations from a re-analysis of the deposited data

Results flagged for a closer look

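The pregnancy change differed between luminal and basal cells, by a test of the difference itself, for 4908 genes. The values below are luminal minus basal log2 changes of 11 genes called in both cell types in opposite directions, with the adjusted p of the difference from edgeR's quasi-likelihood test, and the cause was not tested.

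Genes that rose in basal and fell in luminal cells gave negative differences. Cnmd had a difference of -8.32 (adjusted p = 4e-06), Pcp4 of -8.03 (6.1e-05) and Acta1 of -6.56 (5.5e-05). Spaar had a difference of -5.65 (8.4e-06) and Ncam1 of -4.58 (2.8e-06). Ncam1 was at 1.15 and 0.81 CPM in luminal virgin and 0.448 and 0.493 in luminal pregnant libraries.

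Genes that fell in basal and rose in luminal cells gave positive ones. Igf2 had a difference of 6.37 (1.1e-05), Aqp9, a water and glycerol channel, of 4.90 (5.5e-05), Myrip, a melanosome and granule linker, of 4.55 (0.00054) and Adgrg2 of 4.46 (4e-06). Tnc had a difference of 4.31 (5.2e-07) and Slc7a8, an amino acid transporter, of 3.87 (1.2e-05). The basal fall of Myrip was -2.20 and was not called without the second pregnant library (adjusted p = 0.0788), and it was -2.91 without the first. Expected luminal carry-over was 44.3% of the pregnant basal level of Tnc, 31.6% of that of Igf2 and 27.1% of that of Myrip.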

How the results depend on the processing

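With 2 libraries per stage each call leans on every library. Leaving out single libraries gave 3009 to 3933 calls (1598 to 2051 rises, 1411 to 1882 falls) in basal cells, fewest without the second pregnant library (3009, 1598 and 1411), and 3709 to 4467 for the difference (1628 to 2038 with basal below luminal, 2056 to 2429 above). The second virgin and second pregnant library each changed the sign of uncalled genes when left out, Igfbp5 to 0.02 and 0.22 (range -0.57 to 0.22 over the 4 omissions), Krt5 to -0.07 and -0.07 (-0.07 to 0.23) and Trp63 to -0.10 and -0.08 (-0.10 to 0.24). A test against 1.5-fold left 1384 basal calls (724 and 660) and 2249 for the difference (817 and 1432), since it asks for more. Scaling by library size alone moved the median of all genes by -0.156 (-0.343 for the difference), giving 1647 rises and 3486 falls, and 1008 and 4614 for the difference (17.9% against 45.7% with basal below luminal). It set Egfr at -0.01, Krt5 at -0.09, Trp63 at -0.10 and Jag1 at -0.03. Medians near 0 changed sign with it, among them those of the nuclear receptor, circadian clock, BCL2, cholesterol, TGF-beta, basal factor and interferon lists.

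Subtracting carry-over left little or nothing of luminal genes in virgin libraries. It gave Foxa1 6.05, Krt18 12.61, Areg 6.56 and Atp6v1b1 7.11, and with 8 milk genes, an estimate added after the data were seen, Areg 4.5 and a mean virgin carry-over of 1.8% against 6.13%. For 6 named genes no count was left in 1 or both of these settings, which gave no value. DESeq2 (4555), RLE scaling (4795), no filter (4860), the 6 basal libraries alone (4490) and the 4 compared alone (3857) stayed within 1.5 times the 4794 calls. The replicate block gave 4944 basal calls and 5696 for the difference against 4908, and changed no count by over 1.5 times. Of 199 called among 208 named genes, 128 were called in all 14 settings. Changes of genes with few counts are limited by depth. The cause of the other shifts was not tested.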

Other observations

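Levels at day 2 of lactation, in 2 further basal libraries, extend the comparison of virgin and late pregnancy to after birth. These genes were chosen after their values were seen and the levels were not tested. Csf1 was at 727 and 736 CPM in pregnant and 114 and 92.2 in lactating basal libraries, and the virgin libraries were at 258 and 400.2. Lif was at 151 and 141 CPM in pregnancy and 13.4 and 8.87 at lactation, and Nr1d1 at 208 and 145 and then 38.1 and 33.5. Wif1 was at 353 and 358 in pregnancy and 101 and 101 at lactation, and Psat1 at 159 and 125 and then 54.6 and 57.5. For these 5 genes both lactating libraries lay below both pregnant ones.

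Other genes stood higher at lactation. Synpo2, an actin-bundling protein of muscle, was at 181 and 273 CPM in pregnancy and 809.7 and 759 at lactation, and Nrg1, Kcnma1 and Plcb1 were at 457 and 428, 104 and 101 and 182 and 165 at lactation, each above its pregnant libraries. Tnni2, a fast skeletal troponin, was at 0.959 and 2.14 CPM in pregnant and 99.1 and 66.4 in lactating libraries. The summed skeletal muscle markers, Tnni2 included, were at 116.8 and 82.5 CPM in lactating libraries. Cldn4, a tight junction protein, was at 99.6 and 83.9 CPM in pregnancy and 2.56 and 2.02 at lactation.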
